A study of Mus musculus with 10 samples.

Results

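Cytoplasmic ribosomal protein genes encode the protein parts of the ribosome that translates nuclear-encoded messages. Members were the protein-coding genes whose GENCODE M21 symbol has the form of a large subunit name (Rpl, Rplp) or a small subunit name (Rps, Rpsa). This naming rule took 83 of the 45786 genes in the tables, 51 of the large and 32 of the small subunit. Of these, 81 passed the filter on low counts (49 large, 32 small), and Rpl10l and Rpl39l did not. The gene set was chosen with the irradiated against control difference already known, so that difference is given as a description, and counts of test calls on it support nothing.

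The study followed lung cell suspensions of mice of the inbred laboratory strain C57BL/6J after a dose of γ-rays to the thorax that is used to model radiation fibrosis. The 5 irradiated pools received 12.5 Gy and were taken at 24 h and at 1, 4, 12 and 32 weeks. The 5 control pools came from mice of matching age at the same times and received 0 Gy. Each pool holds RNA of 3 mice and is 1 library, so no time has a replicate pool, and p-values measure the spread between pools of different times. In RNA of mixed cells, fewer cells of a type and less RNA per cell cannot be told apart.

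Nearly all ribosomal proteins are present in equal number in the ribosome, apart from the acidic stalk proteins, and the genes are among the most abundant messages of most cells. Their mRNAs typically begin with a cytosine followed by a run of pyrimidines, the terminal oligopyrimidine or TOP tract, through which growth signalling by mTOR controls their translation together. Some members have roles outside the ribosome, such as the binding of Mdm2 by Rpl5 and Rpl11, and some have tissue-restricted or stress-responsive paralogues.

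Sequences around the start site are shown for the 9 of the 10 members lowest in irradiated pools that have an entry in the promoter table and, as a contrast, for Rps27l and Rpl7l1, whose average differences were the highest and the nearest to 0. They are from RefSeq on GRCm38.p6, cover 30 bases on each side of the annotated start, read 5′ to 3′ on the gene's strand, and have each CTTTC or CTTTTC in capitals. Where a gene has several entries the first is shown. The windows are chr2:180257349-180257408, plus strand for Rps21, chr10:23787180-23787239, minus strand for Rps12, chr3:90213619-90213678, minus strand for Rps27 and chr7:118116118-118116177, minus strand for Rps15a. They are chr10:128626477-128626536, minus strand for Rps26, chr1:72711230-72711289, plus strand for Rpl37a, chr14:24490648-24490707, plus strand for Rps24 and chr2:32961682-32961741, plus strand for Rpl12. They are chr7:116334161-116334220, minus strand for Rps13, chr9:66946056-66946115, plus strand for Rps27l and chr17:46782627-46782686, minus strand for Rpl7l1. The letters occur in 5 of the 9 low members and not in Rps21, Rpl37a, Rps24 and Rps13, nor in the 2 contrast genes.
Rps21: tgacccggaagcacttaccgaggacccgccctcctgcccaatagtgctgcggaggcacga
Rps12: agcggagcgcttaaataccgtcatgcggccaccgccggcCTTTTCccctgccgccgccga
Rps27: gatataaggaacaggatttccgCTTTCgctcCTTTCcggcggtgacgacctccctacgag
Rps15a: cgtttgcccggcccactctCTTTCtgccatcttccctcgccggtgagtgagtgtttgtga
Rps26: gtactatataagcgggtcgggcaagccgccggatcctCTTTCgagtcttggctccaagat
Rpl37a: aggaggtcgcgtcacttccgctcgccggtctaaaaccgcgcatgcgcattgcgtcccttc
Rps24: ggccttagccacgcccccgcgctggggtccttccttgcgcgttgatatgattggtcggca
Rpl12: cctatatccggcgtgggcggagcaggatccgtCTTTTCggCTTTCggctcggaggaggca
Rps13: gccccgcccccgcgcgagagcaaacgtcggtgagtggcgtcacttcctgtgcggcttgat
Rps27l: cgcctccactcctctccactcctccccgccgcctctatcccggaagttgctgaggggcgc
Rpl7l1: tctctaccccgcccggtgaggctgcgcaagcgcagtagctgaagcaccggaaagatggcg

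Of the 83 members, 63 had a promoter in the RefSeq table. The motif letters were chosen after these sequences had been seen. On the gene's strand, CTTTC or CTTTTC, of which neither contains the other, lay in this window in 25 of the 63 members (39.7%), against 11.2% of 27025 genes and 9.8% of tested protein-coding genes. On either strand it was in 54.0% of members and 20.5% of all genes. The letters CCGGAAG, the core of many ETS factor sites, occurred on either strand of the full 300-base promoter in 41.3% of members, against 9.93% of all genes and 18.7% of tested protein-coding genes. The GC box GGGCGG was in 61.9% of members, against 38.2% and 66.2%. Tested members with and without the CTTTC or CTTTTC letters had median log2 folds, irradiated over control, of −0.48 (24 genes) and −0.46 (37 genes). The letters were thus more frequent among members than among all genes, and members with and without them both had medians below 0.

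Libraries held 12719054 to 17477439 fragments in irradiated pools and 8677922 to 17332829 in control pools before the authors' scaling. Alveolar type 2 cell markers summed to 8083 to 60876 scaled counts (CPM) in irradiated pools and 24469 to 43897 CPM in controls. Haemoglobin genes took 2.10% to 6.57% of counts in irradiated pools and 0.804% to 6.67% in controls. The kit does not mark strand, and many members have processed pseudogenes. The 268 annotated ribosomal pseudogenes took 0.024% to 0.048% of a library's counts, and how reads shared with them were divided is not given in the sources used here.

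Ribosomal protein transcripts took a smaller share of the library in the irradiated pool than in the control at all 5 times. From 24 h to 32 weeks the share was 1.92%, 1.43%, 1.89%, 2.08% and 1.96% of counts in irradiated pools. In controls it was 2.79%, 2.24%, 2.99%, 2.48% and 2.70%. The mean was 1.86 ± 0.247% in irradiated pools and 2.64 ± 0.288% in controls (SD, n = 5 each). The highest irradiated pool, at 12 weeks, lay below the lowest control, at 1 week, so the groups did not overlap.

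**Figure D1:**
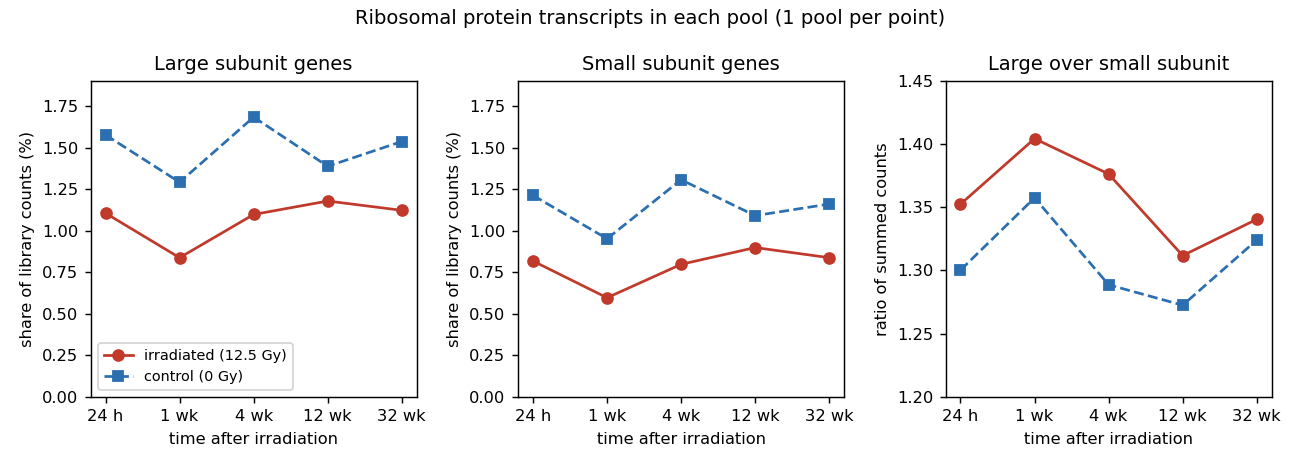
Share of each library's counts (%) taken by large and by small subunit genes, and the ratio of their sums, at each time, with irradiated pools as circles and controls as squares (1 pool per point). Irradiated pools lie below the same-time control in both subunits at all 5 times, and their large over small ratio lies above it at all 5 times.

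Both subunits were lower, the small subunit slightly more so. The ratio of large to small subunit counts was 1.35, 1.40, 1.38, 1.31 and 1.34 in irradiated pools, against 1.30, 1.36, 1.29, 1.27 and 1.32 in controls, from 24 h to 32 weeks. It was higher in the irradiated pool in 5 of 5 pairs, although the 2 groups overlap. The median log2 fold of a gene averaged over the pairs was −0.52 in the small subunit (32 genes) and −0.45 in the large subunit (49 genes), where all 15625 genes tested had 0.013. By time, from 24 h to 32 weeks, the small subunit had −0.54, −0.62, −0.67, −0.33 and −0.36, and the large subunit −0.44, −0.55, −0.61, −0.36 and −0.29. The small subunit was thus the lower one at 4 of the 5 times, with 12 weeks as the exception. Genes of a subunit share the same pools, so no test of the 2 subunits was made.

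Over both subunits, the median log2 fold was −0.48 at 24 h, −0.58 at 1 week, −0.64 at 4 weeks, −0.35 at 12 weeks and −0.32 at 32 weeks. Lower than the matched control were 80 of 81 members at 24 h (50.4% of all genes), 79 at 1 week (47.4%), 80 at 4 weeks (46.8%), 77 at 12 weeks (50%) and 76 at 32 weeks (48.2%). The medians correspond to levels 28.2%, 33.2%, 35.6%, 21.5% and 19.8% lower. The median of all genes tested lay between −0.0041 and 0.030 at every time. The difference was greatest at 4 weeks for 41 members and at 1 week for 28, while 5 members each had it at 12 and 32 weeks and 2 at 24 h. These times were counted for members only, so no share of all genes stands beside them. On the authors' FPKM values (levels per transcript length, with the library scaling as deposited), the 32-week median was −0.012. There the median of all genes was 0.24, a difference of −0.26.

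**Figure D2:**
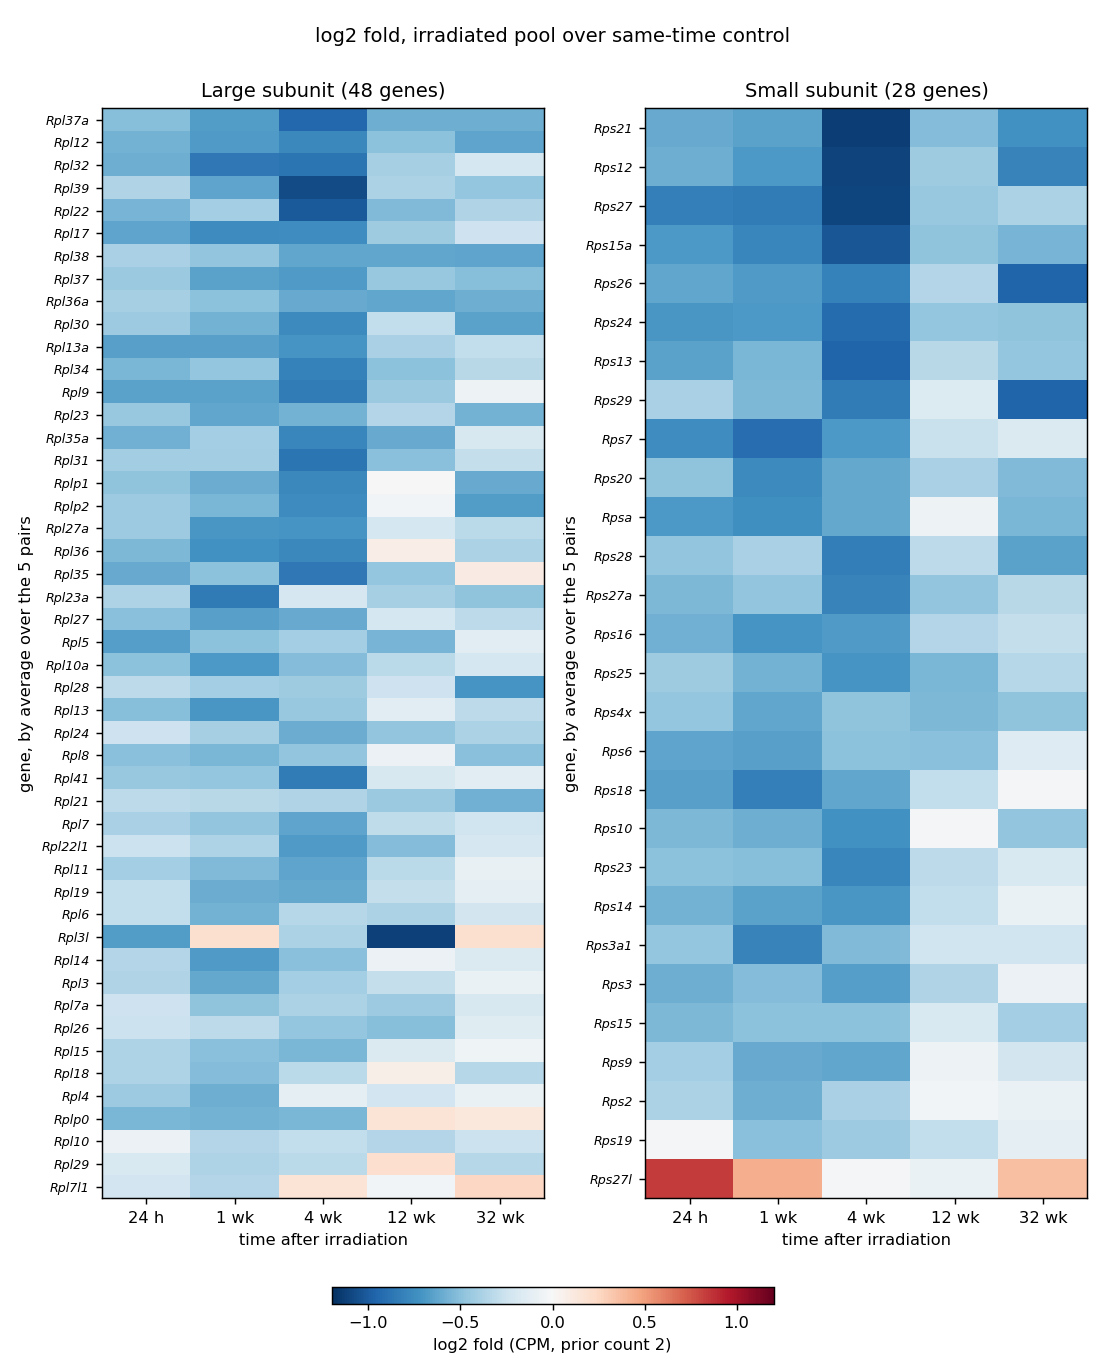
log2 fold of the irradiated pool over the same-time control for 48 large and 28 small subunit genes, with columns in time order and genes sorted by their average over the 5 pairs. Blue (lower in irradiated) fills nearly all cells, and Rps27l is the only strongly red row.

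Counting genes, 73 of 81 members were lower in the irradiated pool in 5 of 5 pairs, 42 of 49 in the large and 31 of 32 in the small subunit, where 5.73% of all genes tested were. Higher in 5 of 5 pairs were 0 members and 6.75% of all genes. In 36 members, 20 large and 16 small, all irradiated pools lay below all controls, against 1.46% of all genes. On FPKM, 34 members were lower in 5 of 5 pairs (1.98% of all genes). Relative to the median of all genes, 68 members were lower in every pair on log2(FPKM + 1) and 73 on log2(FPKM + 0.1). These relative counts were made for members only, without a share of all genes. In edgeR's quasi-likelihood comparison over the 5 times, 0 members had an adjusted p under 0.05 (0% of all genes), 76 were lower at an unadjusted p under 0.05 (4.47% of all genes), and DESeq2 called 55 (1.61%). Since the set was chosen on this contrast, these counts support nothing further.

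Against all 5 controls instead of the matched one, the irradiated pool was the lowest for 47 of 81 members at 24 h (21.2% of all genes) and 78 at 1 week (18.8%). At 4, 12 and 32 weeks the numbers were 76 (16.8%), 60 (21.5%) and 61 (23.3%). The 1-week irradiated pool was the lowest of all 10 pools for 78 members. Among the controls, the 1-week pool was again the lowest, for 53 of 81 members. Both of these lowest-pool counts were made for members only, without a share of all genes. The 1-week pools thus carried low levels of members for their group. Each had the greatest haemoglobin share of its group, 6.57% in the irradiated and 6.67% in the control pool. With haemoglobin and mitochondrially encoded genes left out, the 1-week median log2 fold was −0.61, against −0.58 with them. That fold compares the irradiated pool with the control, so whether haemoglobin bears on the low levels in both was not tested.

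Among the small subunit genes, Rps27 had the highest level per length of all members, with a median of 1422 FPKM over the 10 pools, and was among the 3 lowest in irradiated pools by fold. Rps27 encodes a zinc finger protein of the small subunit and lies at chr3:90212522-90213651 (GRCm38, as for all genes here). It measured 287, 192, 254, 343 and 320.4 CPM in irradiated pools and 507, 345, 544, 471 and 418 CPM in controls, from 24 h to 32 weeks. Every irradiated pool lay below every control, with log2 folds of −0.82, −0.84, −1.10, −0.46 and −0.38 and an average of −0.72 ± 0.30 (SD, n = 5 pairs).

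Rps21, at chr2:180257377-180258445, a small subunit protein, had the lowest average of all members, −0.72 ± 0.24 (SD, n = 5 pairs). Its levels were 50.5, 30.1, 39.5, 44.5 and 46.2 CPM in irradiated pools and 77.0, 47.0, 86.6, 63.8 and 76.7 CPM in controls. The 1-week control was below the 24 h irradiated pool, so the groups overlapped although each pair had the irradiated pool lower. Rps12, at chr10:23785183-23787275, was close behind with −0.72 ± 0.26. It had 105, 62.5, 75.3, 89.6 and 85.8 CPM in irradiated pools and 157, 101, 162, 120.5 and 149.9 CPM in controls, and here too the lowest control was the 1-week pool.

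Rps15a and Rps26 separated fully. Rps15a had 143, 96.2, 124, 155 and 147 CPM in irradiated pools and 231, 166, 252, 217 and 216 CPM in controls. Rps26, whose human counterpart is mutated in some families with Diamond-Blackfan anaemia, had 91.1, 63.2, 79.4, 86.6 and 75.8 CPM in irradiated pools and 140.3, 102, 139, 111 and 148 CPM in controls. Its difference from the control was greatest at 32 weeks, a log2 fold of −0.96, and least at 12 weeks, −0.35. Rps24 and Rps13 completed the small subunit genes among the 10 lowest, with averages of −0.65 ± 0.19 and −0.59 ± 0.24. Rps29, among the 3 highest of this subunit with 1013 FPKM, had −0.58 ± 0.33, with its lowest fold at 32 weeks (−0.96).

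Members with known roles beyond the core were lower as well, by differing amounts. Rps6, the substrate of the S6 kinases, had 414, 364, 447, 481 and 482 CPM in irradiated pools and 642, 572, 629.6, 679.8 and 535 CPM in controls, without overlap. Rpsa, also known as a laminin receptor, had 460.2, 354, 445, 537 and 481 CPM in irradiated pools and 741, 591, 682, 559.6 and 704 CPM in controls. Its 12-week pair was nearly level, with a log2 fold of −0.06. Rps19, the gene first linked to Diamond-Blackfan anaemia in humans, was nearly equal at 24 h. It measured 619.8, 399, 478, 489 and 477 CPM in irradiated pools and 625, 563, 646, 599 and 512 CPM in controls, and its average of −0.27 ± 0.21 was the nearest to 0 in the small subunit apart from Rps27l.

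The other 16 small subunit genes, not taken by the rule for named genes, had average log2 folds between −0.56 (Rps20) and −0.38 (Rps9), and all 16 were lower in 5 of 5 pairs. In 8 of them, Rps3, Rps14 and Rps20 among them, every irradiated pool lay below every control. Rps3, a protein at the mRNA entry that also has a DNA repair activity, had 449, 365, 402, 479.9 and 497 CPM in irradiated pools and 672, 523, 635, 615 and 521 CPM in controls. Rps14, lost in the human 5q- syndrome, had 432, 308, 385, 429 and 459.7 CPM in irradiated pools and 641, 482, 625, 527 and 484 CPM in controls. In both, the 24 h to 4-week pairs differed most and the 32-week pair was closest, with log2 folds of −0.069 for Rps3 and −0.075 for Rps14.

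In the large subunit, Rpl37a, Rpl12 and Rpl32 were among the 10 lowest. Rpl37a, at chr1:72711290-72713813, had 331, 201, 244, 291 and 292 CPM in irradiated pools and 471, 319, 470.4, 437 and 438 CPM in controls, with an average log2 fold of −0.66 ± 0.17. The 1-week control stood apart below the other controls and below the 24 h irradiated pool, so the groups overlapped. Rpl12, a protein at the base of the stalk where elongation factors bind, had the most even difference of the 10 lowest, with log2 folds of −0.57, −0.68, −0.77, −0.49 and −0.63 over time. Its levels were 112, 74.4, 95.1, 101 and 99.4 CPM in irradiated pools and 166, 119, 163, 142 and 154 CPM in controls, without overlap. Rpl32 had 344, 214, 294, 369 and 352 CPM in irradiated pools and 516, 389, 538, 487 and 408 CPM in controls. Its pools did not overlap either, but its log2 fold was only −0.21 at 32 weeks, against −0.87 at 4 weeks. Rpl13 had the highest level per length in the large subunit, 1032 FPKM, and averaged 688 ± 75.1 CPM in irradiated pools and 919 ± 68.0 CPM in controls (SD, n = 5 each).

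Rpl5 and Rpl11, which with 5S rRNA form the particle that can bind Mdm2, were lower in 5 of 5 pairs. Rpl5 had 212, 174, 202, 216 and 224 CPM in irradiated pools and 334, 244, 268, 317 and 245 CPM in controls, without overlap. Rpl11 had 175, 112, 139, 157 and 175 CPM in irradiated pools and 232, 163, 217, 196 and 187 CPM in controls, and its groups overlapped. In both genes the 32-week pair differed least, with log2 folds of −0.13 and −0.094.

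The other 32 large subunit genes had average log2 folds between −0.58 (Rpl39) and −0.20 (Rpl29), and 28 were lower in 5 of 5 pairs. Over all tested genes, averages ran from −0.66 (Rpl37a) to −0.041 (Rpl7l1) in the large subunit. In the small subunit they ran from −0.725 (Rps21) to 0.31 (Rps27l), a wider range through Rps27l alone. The next highest average of that subunit was −0.27 (Rps19). In 15 of the other 32 large subunit genes every irradiated pool lay below every control, Rpl13a, Rpl17, Rpl34 and Rpl37 among them. Rpl39, at the lining of the exit tunnel, had 90.4, 51.3, 64.1, 92.0 and 83.3 CPM in irradiated pools and 116, 79.5, 135, 119.9 and 115 CPM in controls, with its greatest difference at 4 weeks (−1.07). Rpl10, which joins the large subunit late and is needed for subunit joining, was among the closest to its controls. It had 508, 369, 404, 449 and 432 CPM in irradiated pools and 534, 471, 497, 575 and 517 CPM in controls, with log2 folds of −0.07, −0.35, −0.30, −0.36 and −0.26. Rpl41, the shortest of the ribosomal proteins and the highest of these 32 at 636 FPKM, had −0.41 ± 0.28 (SD, n = 5 pairs).

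The stalk proteins did not keep step with each other. Rplp0, the stalk's anchor, was lower in irradiated pools at 24 h, 1 week and 4 weeks and higher at 12 and 32 weeks. It measured 719.7, 572, 658, 797 and 817 CPM in irradiated pools and 1056, 849.7, 961, 709.5 and 751 CPM in controls, with log2 folds of −0.55, −0.57, −0.55, 0.17 and 0.12. Rplp1 and Rplp2, which bind it as dimers, were lower in 5 of 5 pairs, with averages of −0.49 ± 0.29 and −0.49 ± 0.28. Their 12-week pairs were almost equal, at 179.6 CPM in the irradiated pool and 180.1 CPM in the control for Rplp1, and 167 and 171 CPM for Rplp2. At 32 weeks, where Rplp0 was higher, both were lower, with log2 folds of −0.61 for Rplp1 and −0.67 for Rplp2.

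**Figure D3:**
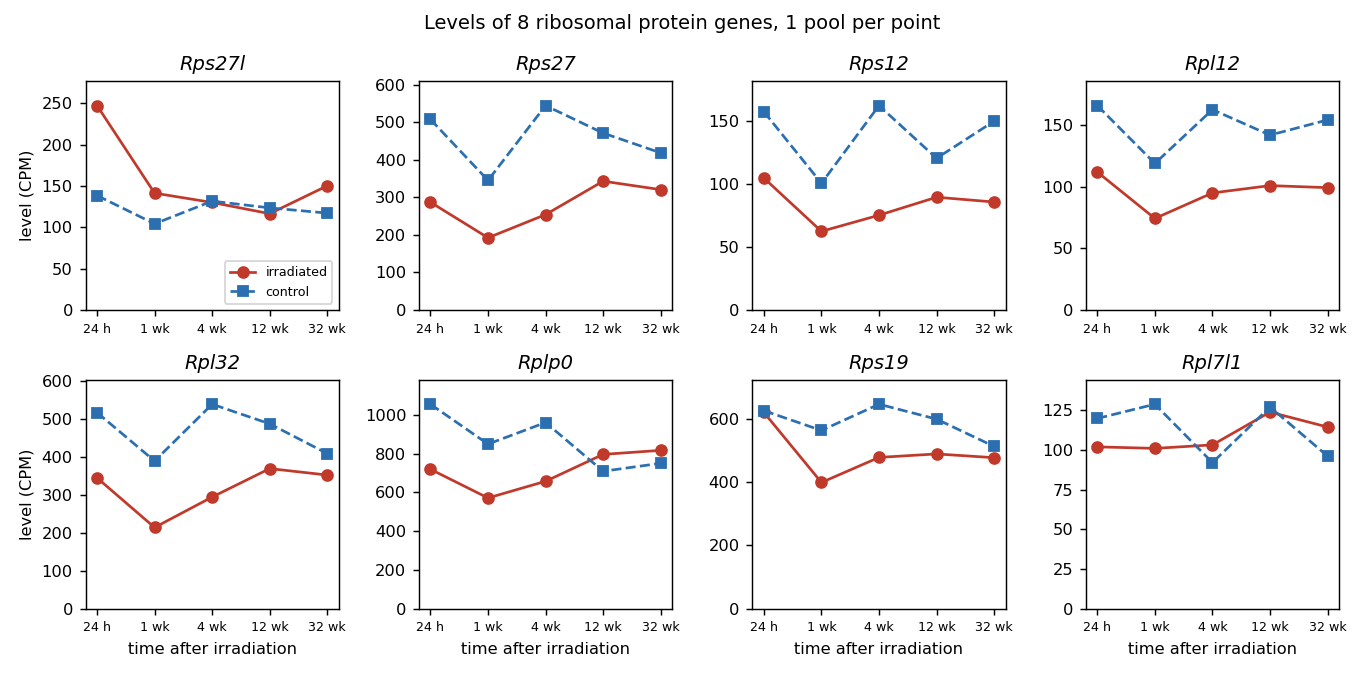
Level in CPM of 8 members at each time, in irradiated pools (circles) and controls (squares), 1 pool per point, with each axis starting at 0. Rps27, Rps12, Rpl12 and Rpl32 run below the controls throughout, Rplp0 crosses its controls between 4 and 12 weeks, and Rps27l stands at 247 CPM in the 24 h irradiated pool.

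The 4 paralogues tested differed among themselves. Rps27l, at chr9:66946086-66949516, a paralogue of Rps27 known as a p53 target, was the only member with a higher average in irradiated pools. It had 247, 141, 130.1, 117 and 150.2 CPM in irradiated pools and 138, 104, 132, 124 and 117 CPM in controls, and the 24 h, 1-week and 32-week irradiated pools exceeded all 5 controls. Its log2 folds were 0.84, 0.44, −0.018, −0.084 and 0.36, with an average of 0.31 ± 0.37 (SD, n = 5 pairs), while those of Rps27 were all negative. Without the 24 h pair the average of Rps27l was 0.17.

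Rpl22l1, a paralogue of Rpl22, had 52.2, 35.9, 36.1, 39.1 and 45.5 CPM in irradiated pools and 62.6, 46.4, 57.9, 56.0 and 52.3 CPM in controls. Its average log2 fold of −0.40 ± 0.19 compares with −0.57 ± 0.25 for Rpl22, and both were lower in 5 of 5 pairs. Rpl7l1, named for its likeness to Rpl7, measured 102, 101, 103, 124 and 114 CPM in irradiated pools and 119.8, 129, 92.0, 127 and 96.1 CPM in controls, with no steady direction. Its average of −0.041 ± 0.26 turned to 0.083 on log2(FPKM + 1). Rpl3l, known from striated muscle, stood at 1.09 to 1.94 CPM in irradiated pools and 1.30 to 2.55 CPM in controls. Rpl39l, known from testis, reached at most 1.24 CPM in irradiated pools and 0.607 CPM in controls, and Rpl10l, also a testis gene, was listed at 0 in all 10 pools. Without the 4 paralogues tested, 72 of 77 members were lower in 5 of 5 pairs. The other members outside the 73 were Rpl18, Rpl29, Rpl35 and Rpl36, each lower in 4 of 5 pairs, and Rplp0.

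Whether the difference changed with time was not part of the choice of the set and was tested. With edgeR's quasi-likelihood test of treatment by log2 days, adjusted by Benjamini-Hochberg over 15625 genes, 0 members were called (0% of all genes), and DESeq2 also called 0 members (0.384% of all genes). At an unadjusted p under 0.05 there were 2 members, Rplp0 and Rps7, against 7.01% of all genes. Rps7, a small subunit protein, had 274, 181, 263, 347 and 308 CPM in irradiated pools and 460.4, 341, 423, 417 and 347 CPM in controls, so that its pairs stood closer at 12 and 32 weeks than before. Per doubling of days, the log2 difference of Rplp0 moved by 0.10 ± 0.041 (SE), unadjusted p = 0.0397, adjusted p = 0.683. That of Rps7 moved by 0.086 ± 0.037 (SE), unadjusted p = 0.0481, adjusted p = 0.710. Rps27l had the steepest move the other way, −0.087 ± 0.043 (SE), unadjusted p = 0.0792, adjusted p = 0.731. The estimate was positive, a rise over time relative to the control, in 59 of 81 members and in 8213 of all 15625 genes, and no member passed the test.

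The slopes over log2 days, 1 per treatment, were fitted together on all 10 pools. The control slope itself rests on the controls, but its p-value uses the spread in both groups. Within the controls, 0 members had a slope by edgeR (0% of all genes, adjusted), 0 at an unadjusted p under 0.05 (4.31%), and 0 by DESeq2 (0.166%). The smallest p was that of Rplp0, with a slope of −0.064 ± 0.032 (SE), unadjusted p = 0.0659, adjusted p = 0.998, followed in the same direction by Rps18 and Rps2. Rpl38, Rpl28 and Rpl30 had the smallest p of the positive slopes. Rpl38, a protein needed for translation of some Hox messages in the mouse embryo, had 76.4, 53.7, 67.8, 68.1 and 74.1 CPM in irradiated pools and 100.4, 74.8, 105, 105 and 115 CPM in controls, with its highest control at 32 weeks. Within the irradiated pools edgeR called 251 genes (1.61%) for a slope, of which 0 were members, and DESeq2 called 8.63% of all genes and 0 members. At an unadjusted p under 0.05 there was 1 member, against 17.3% of all genes. It was Rps27l, with a slope of −0.10 ± 0.035 (SE), unadjusted p = 0.0138, adjusted p = 0.152. Next in that direction were Rpl21 and Rps19, and the positive slopes were led by Rps6 and Rps7, of which Rps6 had 0.04 ± 0.028 (SE), unadjusted p = 0.180, adjusted p = 0.535. Each slope estimate rests on 5 pools of 1 library each, and its p-value on the spread in all 10 pools.

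The order of levels among the members was similar in every pool. Spearman's correlation of FPKM over the 81 members lay between 0.930 and 0.990 for the 45 pairs of pools, which share the gene lengths used in FPKM. The median level was 326 FPKM in the small subunit, with a range of 164 (Rpsa) to 1422 (Rps27), and 281 FPKM in the large subunit, with a range of 1.13 (Rpl3l) to 1032 (Rpl13). Small subunit genes thus lay slightly higher per length and large subunit genes spread further down.

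Other parts of the translation machinery were lower too. Of the 4 ribosome genes that the naming rule does not take, Fau and Rack1 among them, all were lower in 5 of 5 pairs, with a median log2 fold of −0.39. Rack1, a scaffold protein of the small subunit, averaged −0.47 ± 0.093, and Fau, which carries Rps30, averaged −0.42 ± 0.26 (SD, n = 5 pairs). Among 18 elongation factor and other TOP genes the median was −0.30, and 12 were lower in 5 of 5 pairs, led by Hnrnpa1 (−0.54 ± 0.26), an RNA-binding protein, and Eef1b2 (−0.53 ± 0.19), an elongation factor exchange subunit. The 6 non-coding snoRNA hosts tested had a median of −0.50, with −0.18, −0.18, −0.72, −0.97 and −0.72 from 24 h to 32 weeks. Only Gas5 (−0.45 ± 0.17) and Zfas1 (−0.37 ± 0.39) were lower in 5 of 5 pairs. Levels were low, with sums over the list of 45.4 to 59.8 CPM in irradiated pools and 55.9 to 83.7 CPM in controls.

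Genes for making ribosomes, and initiation factors not listed as TOP genes, lay nearer to 0. The 42 ribosome biogenesis and RNA polymerase I genes had a median of −0.13, with 8 lower in 5 of 5 pairs, led by Nop56 (−0.44 ± 0.26) and Wdr12 (−0.43 ± 0.22). Polr1a, the largest subunit of RNA polymerase I, was higher in 5 of 5 (0.44 ± 0.33). The 28 initiation factors had a median of −0.10, with 4 lower in 5 of 5 pairs, Eif2s2 (−0.35 ± 0.23) and Eif1 (−0.26 ± 0.23) first, and Eif3b higher in 5 of 5 (0.12 ± 0.14). Several Eif3 subunits and Eif4b are not among these 28, since they stand in the list of 18 elongation factor and other TOP genes. The 78 mitochondrial ribosomal proteins had −0.12, with 13 lower in 5 of 5, led by Mrpl9 (−0.34 ± 0.14) and Mrps18a (−0.33 ± 0.12), and a median above 0 at 32 weeks (0.096). Of 21 regulators of ribosomal protein output (median 0.049), Yy1 was lower in 5 of 5 pairs (−0.48 ± 0.14), and Rptor (0.20 ± 0.12) and Eif4ebp1 (0.074 ± 0.09), both of the mTOR pathway, were higher in 5 of 5. Of all genes tested, 5.73% were lower and 6.75% higher in 5 of 5 pairs. In these lists, 1 or 2 such genes are therefore no result about the list.

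**Figure D4:**
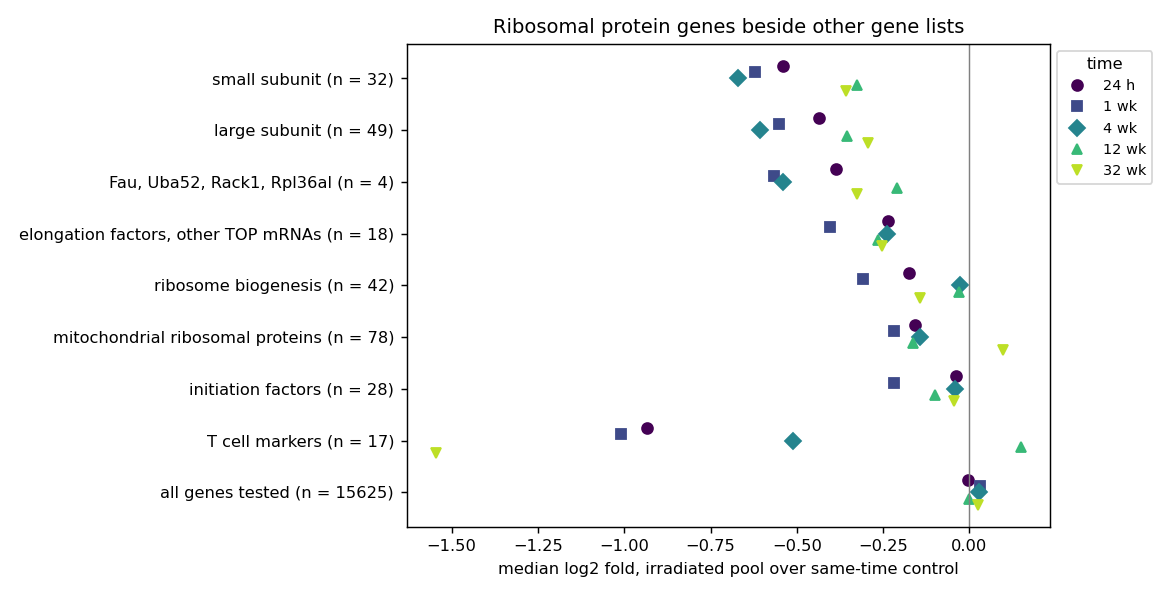
Median log2 fold, irradiated over same-time control, of each gene list at the 5 times, with the number of genes tested in each list. Both subunits lie between −0.67 and −0.29 at every time, and T cell markers run from −1.55 to 0.15. Mitochondrial ribosomal proteins and the initiation factors not listed as TOP genes lie nearer to 0.

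Markers of several cell types differed between irradiated and control pools, and their part in the result was not tested. The 17 T cell markers had median log2 folds of −0.93, −1.01, −0.51, 0.15 and −1.55 from 24 h to 32 weeks, and summed to 630 to 1422 CPM in irradiated pools and 1111 to 2190 CPM in controls. The ribosomal protein medians at the same times were −0.48, −0.58, −0.64, −0.35 and −0.32. The 14 B cell markers had −0.96 and −0.91 at 24 h and 1 week and −0.13 to 0.17 later, and summed to 1615 to 5716 CPM in irradiated pools and 2537 to 5288 CPM in controls. The 11 monocyte and interstitial macrophage markers had medians above 0 at all times (0.095 to 0.90), and 6 of them were higher in 5 of 5 pairs (6.75% of all genes). They summed to 1863 to 2842 CPM in irradiated pools and 1374 to 2032 CPM in controls. The 8 red cell genes summed to 22352 to 70665 CPM in irradiated pools and 7532 to 68985 CPM in controls. Their sum was higher in the irradiated pool of every pair, at 32 weeks 22352 against 7532 CPM. The median log2 fold was 1.87 at 32 weeks and −0.17 at 12 weeks. The 10 alveolar type 2 markers had medians above 0 up to 4 weeks and below 0 at 12 and 32 weeks (0.56, 1.19, 0.71, −1.54 and −0.85). The other 8 marker lists had medians of the average fold from −0.32 (fibroblasts and smooth muscle) to 0.31 (neutrophils), with greater differences at single times. Alveolar macrophage markers had medians of 0.33, −0.10, −1.50, −0.22 and 0.27 from 24 h to 32 weeks. At 4 weeks they summed to 3019 CPM in the irradiated pool and 7664 CPM in its control. Fibroblast and smooth muscle markers had −0.58 at 4 weeks and −1.03 at 32 weeks. None of the 13 lists had a marker at 0 in all pools.

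Ribosomal protein genes are short, with a median transcript length of 711.5 bases, against 2031 for all genes tested, and short genes as a class were lower in irradiated pools on average over the pairs. Among members up to 500 bases, the median of the average log2 fold was −0.53, and among other genes of that length it was −0.15. In the next class, up to 700 bases, it was −0.48 for members and −0.049 for other genes. Up to 1000 bases it was −0.46 for members and −0.037 for other genes, and up to 1500 bases −0.41 and −0.020. Members were lower than other genes in each of these classes, and up to 1500 bases both averages rose with length. By time, the members' medians rose in this order at 4 weeks (−0.76, −0.69, −0.62 and −0.46). They did not at 24 h (−0.47, −0.46, −0.50 and −0.41) or 1 week (−0.578, −0.580, −0.572 and −0.573). Nor did they at 12 weeks (−0.35, −0.35, −0.32 and −0.37). Averages of longer members were lower again, −0.53 for 3 up to 2500 bases and −0.56 for 1 up to 4000. Spearman's correlation of length and log2 fold over members was 0.23. At 32 weeks the order among other genes was different beyond the short classes. Their medians were −0.036 up to 500 bases, 0.037 up to 700, 0.078 up to 1000 and 0.091 up to 1500. Longer genes had 0.059 up to 2500, 0.015 up to 4000 and −0.12 over 4000 bases. Members had −0.60, −0.34, −0.21 and −0.23 at that time in the classes up to 1500 bases. With the trend on length removed in each library, the members' median was −0.32 in place of −0.47.

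**Figure D5:**
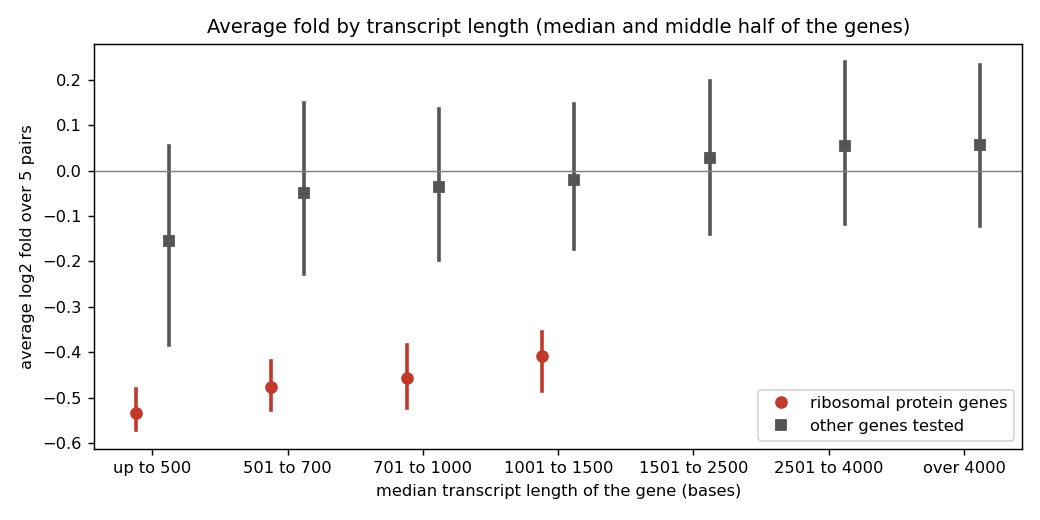
Average log2 fold over the 5 pairs by transcript length, as the median (marker) and the range from the lower to the upper quartile (bar) of ribosomal protein genes (circles) and other genes tested (squares), with classes of under 10 genes left out. Ribosomal protein genes lie below other genes in all 4 classes shown for them, and other genes lie below 0 in the 4 shortest classes.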

How the data were processed

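RNA was sequenced from 10 pools of lung cell suspension, each from 3 mice. The labels' protocols name Qiagen RNeasy PLUS for extraction and, for libraries, the Clontech ultralow and NexteraXT kits. Trimmomatic 0.32, STAR 2.4.2a, Cufflinks 2.0.2, Cuffdiff and build GRCm38.p4 were used, per the submitters' processing notes. What each tool did and which annotation it used is not stated in those notes. Deposited by the authors were expected counts, which are fractional and carry a scaling step of 0.576 to 1.385 per library (deposited totals 9983710 to 13509769), and FPKM. Of low values, 77.4% to 80.6% were whole multiples of the step within a tolerance of 0.05. Division by it gave fragments before scaling. Counting error only is covered by such depths, since no molecular identifiers are named.

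Symbols came from GENCODE M21 (45137 of 45786 identifiers matched). Expected counts were rounded, scaled by TMM and filtered with filterByExpr at a minimum count of 10, which left 15625 genes. edgeR 4.0.16 (R 4.3.3) quasi-likelihood tests had time as a block for the comparison over times and for its change with log2 days, and 1 slope per treatment otherwise. They were 2-sided, and p-values were adjusted by Benjamini-Hochberg and called under 0.05. The labels put each irradiated pool beside a control pool of its time, and this shared time is the pairing. log2 folds per pair used a prior count of 2. A median over members is a description. Alternatives were other scaling, filtering, DESeq2 1.42.0, limma 3.58.1 on log2(FPKM + 1) and log2(FPKM + 0.1), no time block, a removed length trend, left-out haemoglobin and mitochondrial genes and left-out times. Scripts were tested on simulated data.

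The members, the gene lists and the tests were chosen with earlier results of these data known. Named members are the 10 lowest by average fold, 15 genes of set roles or paralogues, the 3 highest by FPKM per subunit, and the 3 smallest p of each direction for each test over time. For other lists they are the 2 largest averages per direction with 5 of 5 pairs alike. A few genes are not reported here by name.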

Additional observations from a re-analysis of the deposited data

Results flagged for a closer look

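Of 70 groups of 5 pools (the irradiated and the control pools of 35 named members), 3 held a pool that lay far from the other 4, where chance flags about 1 in 20 groups. Rpl37a had 319 CPM in the 1-week control, below the 437 to 471 CPM of the other controls. Rps27l had 247 CPM in the 24 h irradiated pool, above the 117 to 150 CPM of the other irradiated pools. Rpl39l, which did not pass the filter on low counts, had 1.24 CPM in the 32-week irradiated pool and 0 to 0.32 CPM in the other irradiated pools.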

How the results depend on the processing

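The members' median log2 fold over the 5 times, −0.47, lay between −0.52 and −0.43 when each time was left out in turn. Then 72 to 76 members were lower in every remaining pair, a count made for members only. Without the length trend it was −0.32, with −0.30 in the large subunit, −0.40 at 1 week and −0.47 at 4 weeks. On log2(FPKM + 1) and log2(FPKM + 0.1) the median was −0.45 in both at 4 weeks and −0.012 in both at 32 weeks, with 34 members lower in every pair. The all-gene medians at 32 weeks were 0.24 and 0.32 there, against 0.025 with TMM. Relative to them the members had −0.26 and −0.33 at 32 weeks. Total count scaling gave −0.49 at 32 weeks, where it put the all-gene median at −0.15. DESeq2 called 55 members over the 5 times, against 0 with edgeR, and the cause was not tested. Fitted without the time block, edgeR also called 0 members (75 at an unadjusted p under 0.05, counted for members only). Folds per pair do not depend on that block. Of 462 values of the 33 named members tested under the 14 settings that can change a fold per pair, 446 moved by less than the spread between pairs and 12 moved by more in the same direction. The other 4 were all Rpl7l1, 0.083 and 0.087 on the 2 FPKM scales and −0.11 to 0.037 (0.0072 without 24 h, 0.037 without 1 week) when times were left out. No member was called for a change with time or a slope under any setting run. The number of pools, 5 per group, limits the precision.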
